A study of Mus musculus with 75 samples.

Results

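The genes described here build, acidify and fill the lysosome: the subunit genes of the vacuolar proton pump (V-ATPase) whose symbols begin with Atp6v, all cathepsin genes (Cts and a letter or digit) and 4 other lysosomal genes, Lamp1, Lamp2, Lipa and Npc2. The rule uses symbols and no measured value, and gave 41 members of the 22781 genes in the deposited gene tables, 40 of them in both the chow and the high-fat diet (HFD) table. The members are 13 genes of the V1 domain, 9 of the V0 domain, 10 cysteine cathepsins, 4 serine or aspartic cathepsins, the placental cathepsin Cts8, and the 4 other genes. The V-ATPase couples ATP hydrolysis by its cytosolic V1 domain to proton transport through its membrane V0 domain. Cathepsins are proteases that work in the acid lumen, Lamp1 and Lamp2 coat the lysosomal membrane, Lipa cleaves cholesteryl esters and triglycerides delivered to lysosomes, and Npc2 hands cholesterol to the membrane exporter Npc1. In fat, macrophages that take up lipid from adipocytes are known for a large lysosomal compartment, and in osteoclasts and related cells the d2 subunit Atp6v0d2 and cathepsin K are used for secretion of acid and protease.

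RNA was sequenced from epididymal white fat (eWAT, a visceral depot), inguinal white fat (iWAT, subcutaneous) and gastrocnemius muscle of mice that combine a nuclear (n) and a mitochondrial (mt) genome of the strains C57BL6/J and C3H/HeN. C57n:C57mt and C3Hn:C3Hmt are wild types. C57n:C3Hmt and C3Hn:C57mt are exchange lines, in which the mitochondrial genome was swapped. All mice were weaned on chow. At 6 weeks of age they stayed on chow or were moved to HFD, and tissue was taken at 12 to 13 weeks. The 75 libraries form 20 groups of 3 or 4: 29 of eWAT and 30 of iWAT on both diets, and 16 of muscle on chow. Each library carries its own animal number within a tissue, each strain combination is 1 inbred line, and sex is not stated.

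Libraries held 15.7 M to 31.5 M expected counts. All 47 chow libraries share 1 sequencing run, while the 28 HFD libraries come from 3 others, so diet and run cannot be told apart, and on chow, apart from 1 eWAT library, the nuclear genome and the sequencing lane cannot be told apart. The median G+C content of aligned reads was 49.39% on chow and 48.83% on HFD in eWAT, and 49.03% and 48.17% in iWAT. CPM are counts per 1 M counts of the library, scaled with TMM factors within each tissue. The summed level of 10 adipocyte markers was 5384 to 46253 CPM in fat and 756 to 1058 in muscle. That of 10 fast muscle markers was 184440 to 248243 CPM in muscle, with group medians of 18.6 to 179 in eWAT. In iWAT it was 10.7 to 18898 CPM on chow and 28.3 to 25861 on HFD, so some iWAT libraries held muscle RNA. In 7 eWAT libraries the summed level of 9 epithelial markers was over 3 times the eWAT median, at 141 to 12381 CPM, against 7.41 to 88.8 CPM in the other 22. They are replicate 1 of C3Hn:C3Hmt on HFD and, on chow, replicates 2 and 4 of C3Hn:C57mt, 1 and 4 of C57n:C3Hmt, and 1 and 3 of C57n:C57mt. In iWAT the summed lymphocyte markers ranged from 17 to 4107 CPM (median 786 on chow and 69.3 on HFD), with the highest value, and the lowest adipocyte markers of the depot (9154 CPM), in replicate 3 of C3Hn:C3Hmt on HFD.

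Promoter sequences are shown for 4 members named in the results below, because the lysosomal gene network is known for a shared promoter element. RefSeq (GRCm38.p6) gave a window of 300 bases around a transcription start for 31 of the 41 members. The 250 bases before the start are printed for the V1 subunit Atp6v1a, cathepsins D and K, and Lipa, 5′ to 3′ on the gene's strand, and capitals mark TCACGTGA, the core of the element bound by Tfeb and its relatives.

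Atp6v1a (chr16:44139260-44139509, minus strand): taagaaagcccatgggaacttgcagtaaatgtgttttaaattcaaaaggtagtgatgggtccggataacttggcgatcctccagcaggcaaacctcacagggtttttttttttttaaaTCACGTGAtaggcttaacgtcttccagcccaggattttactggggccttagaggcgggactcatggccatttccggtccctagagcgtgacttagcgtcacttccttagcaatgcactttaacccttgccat
Ctsd (chr7:142387828-142388077, minus strand): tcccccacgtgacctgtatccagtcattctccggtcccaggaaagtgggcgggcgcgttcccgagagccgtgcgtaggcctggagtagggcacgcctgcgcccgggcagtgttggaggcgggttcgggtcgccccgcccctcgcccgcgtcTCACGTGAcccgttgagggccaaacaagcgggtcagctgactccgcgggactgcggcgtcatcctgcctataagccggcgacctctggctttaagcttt
Ctsk (chr3:95498960-95499209, plus strand): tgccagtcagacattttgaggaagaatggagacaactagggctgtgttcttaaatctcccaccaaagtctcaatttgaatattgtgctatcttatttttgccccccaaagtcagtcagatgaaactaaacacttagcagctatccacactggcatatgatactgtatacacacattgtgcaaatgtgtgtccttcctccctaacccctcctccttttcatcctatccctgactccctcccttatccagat
Lipa (chr19:34527475-34527724, minus strand): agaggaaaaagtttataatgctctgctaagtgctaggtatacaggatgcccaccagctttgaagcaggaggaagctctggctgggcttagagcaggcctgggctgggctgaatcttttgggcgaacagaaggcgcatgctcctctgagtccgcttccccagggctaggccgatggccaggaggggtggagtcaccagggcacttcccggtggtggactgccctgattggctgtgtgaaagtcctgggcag

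TCACGTGA reads the same on both strands. It lay in the windows of 5 of the 31 members (16.1%: Atp6v0d1, Atp6v0e, Atp6v1a, Ctsa and Ctsd), against 1.12% of the 27025 genes in the promoter table. The shorter CACGTG, which TCACGTGA contains, lay in 9 of the 31 (29%), the same 5 and Atp6v0b, Ctsf, Ctsl and Lamp1, against 8.09% of all genes. The full element, known as CLEAR, lay in 0 of the 31 and in 0.37% of all genes. In the printed windows CACGTG began 131 bases before the start in Atp6v1a and 245 and 98 bases before it in Ctsd, and neither Ctsk nor Lipa holds these letters there. A match is a description of letters and was not tested for binding. Of the 5 members with TCACGTGA, 1 was called higher on HFD in eWAT and 1 in iWAT. Of those tested with a window but no CACGTG, 7 of 18 and 6 of 17 were. Without a window, 6 of 10 and 3 of 10 were. Among all genes 18.5% and 21.4% were called higher.

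Levels were compared between members as CPM per kilobase of the longest annotated transcript. Cathepsin D, the main aspartic protease of lysosomes, stood first in every tissue, with a median of 1078 CPM per kb in eWAT (335 to 2133 over 15 chow libraries), 932 in iWAT and 263 in muscle on chow. Cathepsin B, a cysteine protease, was second in both fat depots, at 542 and 474 CPM per kb, and was at 56.6 in muscle. Npc2, Lamp1 and Ctsl followed in eWAT at 458, 407 and 352. In muscle Ctsd was followed by Lamp1 (192) and by the V1 stalk subunit Atp6v1g1 (155). In eWAT the ranges over libraries overlapped between all neighbours among these 5 genes. As a share of all counts, the members together made up a median of 1% of eWAT libraries on chow (0.677 to 1.97%), 1.51% on HFD (0.888 to 3.26%), 0.942% and 1.04% of iWAT libraries, and 0.244% of muscle libraries.

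**Figure D1:**
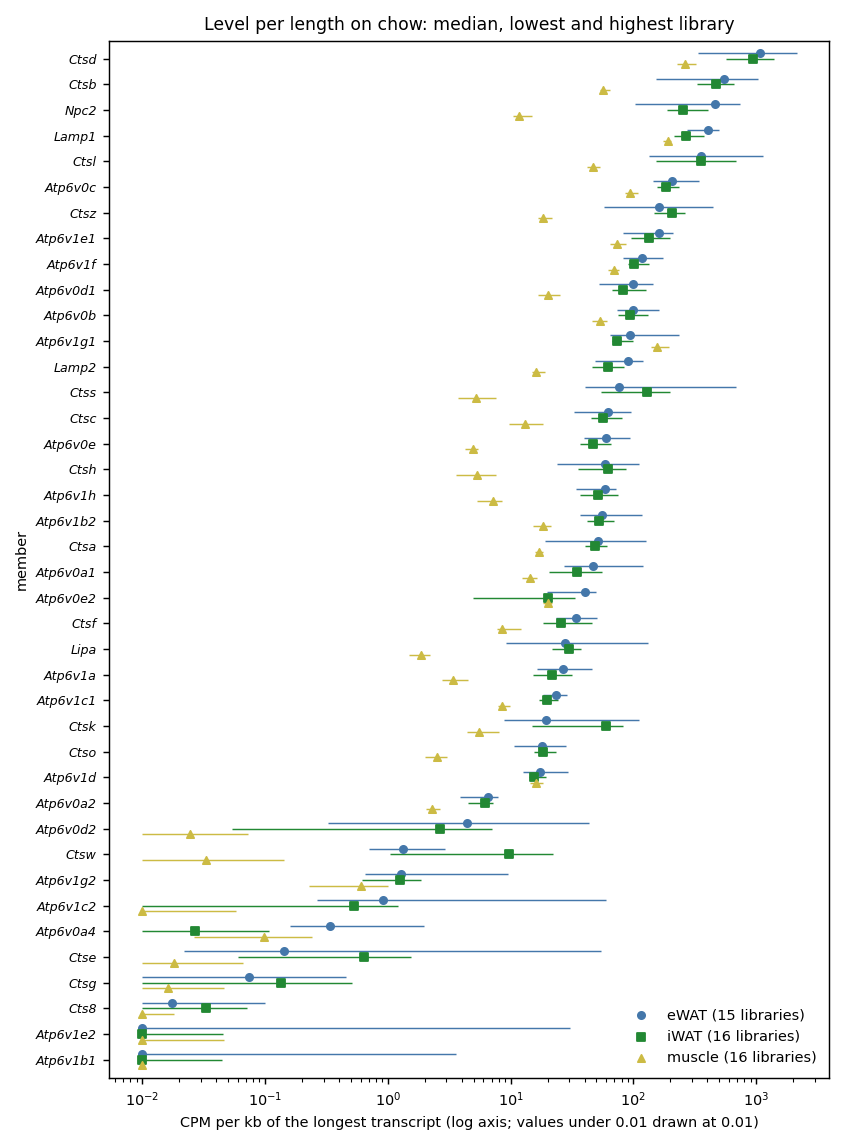
Level of the members per length in chow libraries: CPM per kilobase of the longest transcript on a log axis, points for the median and lines from the lowest to the highest library of eWAT (15), iWAT (16) and muscle (16), with values under 0.01 drawn at 0.01. Ctsd leads in all 3 tissues, and Atp6v1g1 (155 CPM per kb in muscle) is the member whose muscle median lies right of both fat medians.

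Several subunits exist as a common and a tissue-restricted copy, and the shares of the copies differed between tissues and groups. The share of the d2 copy, Atp6v0d2, in the summed counts of Atp6v0d1 and Atp6v0d2 had a median of 43.3% in C3Hn eWAT on HFD, 16.7% in C3Hn eWAT on chow, 12.7% in C57n eWAT on HFD and 1.21% in C57n eWAT on chow. In muscle it stayed under 0.3% in every library (highest 0.29%). Atp6v0e2 made up a median of 80.4% and 80.5% of the e subunit counts in C3Hn and C57n muscle, and 15.5 to 45.8% across the fat groups. The kidney-type copy Atp6v1b1 had counts in 6 of 29 eWAT libraries, 9 of 30 iWAT libraries and 0 of 16 muscle libraries, and the testis-type copy Atp6v1e2 had 924 of its 934 eWAT counts in 1 library. Atp6v1e2, Cts8 and the granule protease Ctsg did not pass the filter on low counts in either depot, Atp6v1g3 was not tested in fat because only the chow table lists it, and 32 members were tested in muscle. Of the 2 transcripts listed for Lamp2, NM_010685 took a median of 66.9 to 72.5% of the Lamp2 counts in fat and 85.8% in muscle (83.5 to 88.7%). Of those of Ctsa, the serine carboxypeptidase that protects lysosomal galactosidase, NM_008906 took 67 to 80.6% in fat and 34.9% in muscle.

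Epididymal fat on HFD was compared with chow as the mean over the 4 genotypes. Of 37 members tested, 15 were higher on HFD and 4 lower (edgeR, Benjamini-Hochberg adjusted p under 0.05 over all genes), while among all genes tested 18.5% were called higher and 22.9% lower. The median log2 difference of the members was 0.30, against -0.10 over all genes. By role, 3 of 9 V0 genes rose, 4 of 11 V1 genes rose and 2 fell, 5 of 10 cysteine cathepsins rose and 1 fell, 1 of 3 serine and aspartic cathepsins fell, and 3 of the 4 other genes rose.

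Of the V0 genes, Atp6v0d2 (chromosome 4, 19803988 to 19849752, NCBIM37) had a median of 88.1 CPM on HFD (1.84 to 300.1, n = 14) and 11.3 on chow (0.835 to 110.3, n = 15), and its log2 difference was 1.74 ± 0.61 (SE; adjusted p = 0.0267). In single libraries it was 47.2, 179, 300.1 and 128 CPM in C3Hn:C3Hmt on HFD and 11.3, 72.7 and 34.5 on chow. In C57n:C3Hmt it split within the chow group, at 67.8, 1.22, 0.835 and 67.3 CPM, and the 2 high values are those of the 2 libraries with epithelial RNA. Diet groups overlapped over all libraries. Without the 7 libraries with epithelial RNA the difference was 3.09 (adjusted p = 0.000463), while leaving out replicate 1 of C3Hn:C3Hmt on chow or replicate 3 of C57n:C3Hmt on HFD ended the call (highest adjusted p = 0.205, difference down to 0.91). The a subunits, which hold the proton half-channels, rose less: Atp6v0a1 by 0.45 ± 0.17 (adjusted p = 0.0333) and Atp6v0a2 by 0.35 ± 0.10 (0.00861). The common d copy Atp6v0d1 (-0.03) and the proteolipid Atp6v0c (0.13), which forms most of the proton-carrying ring, were not called.

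Of the V1 genes, Atp6v1a, the catalytic subunit that hydrolyses ATP (chromosome 16, 44085515 to 44139818), had the smallest adjusted p of all members. Its lowest, median and highest libraries were 132, 195 and 495 CPM on HFD and 69.8, 113 and 194 on chow, a difference of 0.94 ± 0.13 (adjusted p = 7.28e-06). The wild type C57n:C57mt was at 149, 143, 177 and 213 CPM on HFD and 93.2, 92.6, 69.8 and 93.4 on chow, without overlap. The non-catalytic partner Atp6v1b2 rose by 0.66 ± 0.14 (0.000942), the stalk subunit Atp6v1c1 by 0.53 ± 0.09 (5.68e-05) and Atp6v1h, which regulates the pump, by 0.29 ± 0.10 (0.0203). The restricted copies Atp6v1c2 (-2.09 ± 0.65, adjusted p = 0.0135) and Atp6v1g2 (-0.99 ± 0.34, 0.0243) fell. Atp6v1c2 was at 93.1 CPM in replicate 2 of C3Hn:C57mt on chow and at 20.5 CPM in replicate 3 of C57n:C57mt on chow, both libraries with epithelial RNA, and at 0.297 to 5.34 CPM in the other eWAT libraries. Without the 7 such libraries its difference was -0.01 (adjusted p = 0.996).

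Among the cysteine cathepsins the 2 neighbouring genes Ctss and Ctsk (chromosome 3, 95330708 to 95360325 and 95303208 to 95313284) rose most. Cathepsin S, which trims the invariant chain in antigen-presenting cells, had a median of 534 CPM on HFD (108 to 1962) and 103 on chow (55.2 to 932), a difference of 1.64 ± 0.36 (adjusted p = 0.00115). Cathepsin K, a collagenase, was at 82.9 CPM on HFD (25.3 to 382) and 28.9 on chow (13.2 to 164), with a difference of 1.36 ± 0.31 (0.0015). For both genes the diet groups overlapped over all genotypes. In C57n:C57mt they did not: Ctss was at 341, 379.8, 312 and 601 CPM on HFD and 106, 80.2, 55.2 and 103 on chow. Ctsb (0.66 ± 0.26, adjusted p = 0.043), Ctsc, which activates granule proteases (0.47 ± 0.17, 0.0365), and Ctso (0.30 ± 0.12, 0.0497) rose by less, and each of these 3 lost the call without some single library, Ctso in 22 of the 29 fits that leave out 1 library. Ctsz (0.54), Ctsl (0.43) and Ctsh (0.31) were not called. Ctsw, expressed by cytotoxic lymphocytes, fell by 0.64 (SE 0.22, adjusted p = 0.0221), a call lost without replicate 2 of C3Hn:C3Hmt on chow.

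Neither abundant acid hydrolase of the aspartic and serine classes was called: the differences were 0.31 for Ctsd (adjusted p = 0.294; medians 2877 and 2294 CPM) and 0.46 for Ctsa (0.0663). Ctse, an aspartic protease of epithelia and immune cells, fell by 2.51 (SE 0.81, 0.0172). It was at 115 CPM in replicate 2 of C3Hn:C57mt on chow, at 7.82 in replicate 3 of C57n:C57mt on chow and at most 0.712 in the other eWAT libraries. Leaving out either of those 2 ended the call, and without all 7 libraries with epithelial RNA the difference was -0.08.

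Lipa (chromosome 19, 34566808 to 34601964) had a median of 314 CPM on HFD (98.5 to 1410) and 82.6 on chow (27.2 to 391), a difference of 1.62 ± 0.30 (adjusted p = 0.000248). In C3Hn:C57mt it reached 582, 1035 and 1410 CPM on HFD, against 391, 34.7, 292 and 345 on chow, so the 3 HFD libraries stood above all 4 chow libraries. Lamp2 (chromosome X, 35754534 to 35809631) was at 441 CPM on HFD (391 to 640.2) and 325 on chow (176 to 432), a difference of 0.56 ± 0.09 (8.21e-05). Only 2 chow libraries, replicates 1 and 4 of C57n:C3Hmt at 423 and 432 CPM, lay within the HFD range, and both hold epithelial RNA. Lamp1 rose by 0.31 ± 0.10 (0.0205), and Npc2 was at 1292 and 1495 CPM (-0.15, adjusted p = 0.63). The 10 members called in all 29 fits that leave out 1 library were Atp6v0a2, Atp6v1a, Atp6v1b2, Atp6v1c1, Atp6v1h, Ctsk, Ctss, Lamp1, Lamp2 and Lipa.

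**Figure D2:**
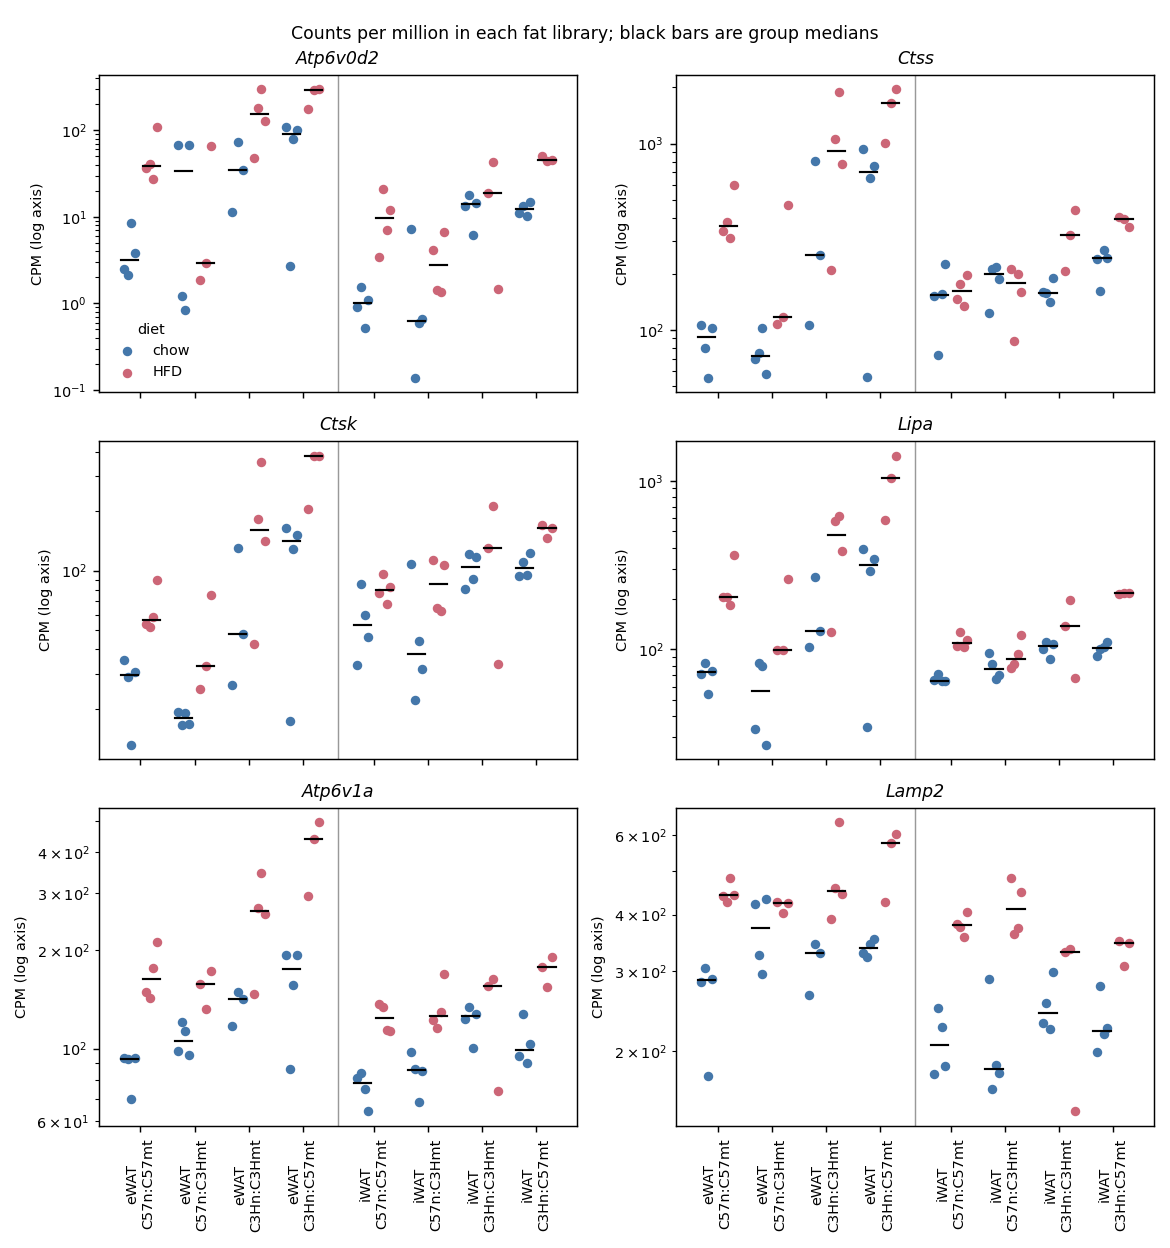
CPM of 6 members in each of 59 fat libraries on log axes, by depot and genotype (blue chow, red HFD; black bars are group medians). In eWAT Ctss reached 1962 CPM and Lipa 1410 CPM on HFD, in C3Hn:C57mt, and within iWAT the spread between genotypes was narrower for Ctss and Lipa.

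Macrophage markers moved with these members. Of 24 macrophage markers, 20 were higher on HFD in eWAT (median log2 difference 1.42). Their summed level was 1716 to 5172 CPM in C57n and 1824 to 19861 CPM in C3Hn libraries on HFD, against 652 to 1571 and 819.5 to 6086 on chow. In bulk tissue, more cells of a type and more RNA per cell cannot be told apart. The mean log2 level of 12 markers that are no lysosomal genes was added to the fit as a covariate. The summed level of these 12 was at a median of 487 CPM on chow and 1287 on HFD in eWAT. The covariate thus moved with diet, can take up part of the diet difference, and does not separate cell number from RNA per cell. With it, 2 members were called higher, Atp6v1a (0.37, adjusted p = 0.0159) and Lamp2 (0.43, 0.0258). With it, 6 members were called lower: Ctsz (-0.80, adjusted p = 0.00123), Ctsd (-0.71, 0.0158), Ctsl (-0.60, 0.049996), Ctsb (-0.58, 0.0152), Ctsa (-0.46, 0.0305) and Ctsf (-0.43, 0.0351). The differences of Lipa (0.03), Atp6v0d2 (-0.10), Ctsk (-0.19) and Ctss (-0.22) were not called beside the covariate. In a fit chosen after seeing the data, with the covariate and without the libraries with epithelial RNA, Atp6v1a was called higher (0.46, adjusted p = 0.0406), Ctsa (-0.52) and Ctsw (-1.13) lower, and no other member was called. A correction for the G+C content and length of genes left 14 calls in eWAT, among them Atp6v1a (0.71, 0.0026), Ctss, Ctsk and Lipa, and moved Lamp2 to 0.18 (0.238). Here and below, shares of all genes are not given for fits with a covariate, this correction or libraries left out. A change in count there need not be particular to the members.

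**Figure D3:**
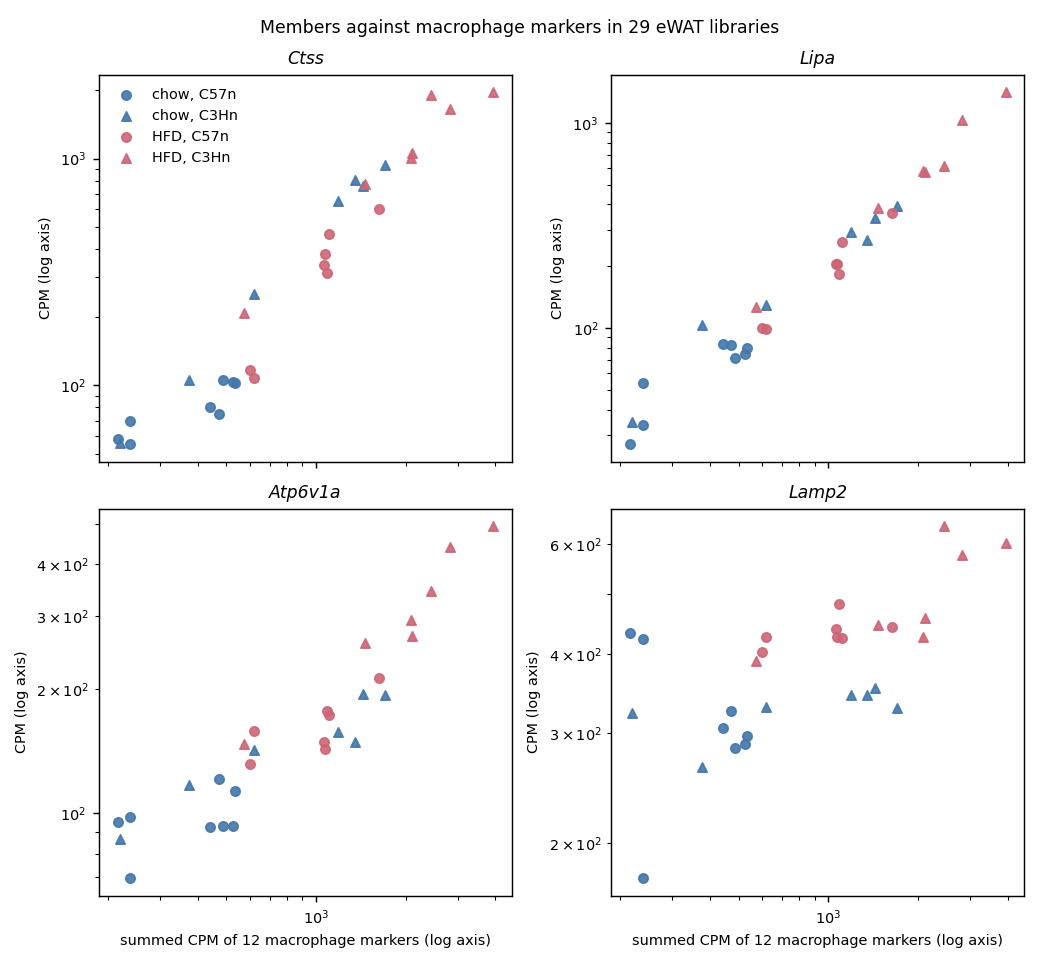
CPM of Ctss, Lipa, Atp6v1a and Lamp2 against the summed CPM of 12 macrophage markers in 29 eWAT libraries, both axes log (blue chow, red HFD; circles C57n, triangles C3Hn). Ctss and Lipa lie near 1 band over both diets, whereas for Lamp2 the HFD libraries, from 391 CPM upward, lie above most chow libraries of like marker level.

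Inguinal fat was compared in the same way, and the members that rose there were a subset of those in eWAT. Of 36 members tested, 11 were higher on HFD and 1 lower, against 21.4% and 16.2% of all genes. The median difference was 0.16, against 0.01. All 11 were also called higher in eWAT, which is 100% of the iWAT calls and 73.3% of the eWAT calls: Atp6v0d2, Atp6v1a, Atp6v1b2, Atp6v1c1, Ctsc, Ctsk, Ctso, Ctss, Lamp1, Lamp2 and Lipa. Over all genes 18.5% were called higher in eWAT, and the overlap of all genes between the depots was not counted. Most differences of the members were under 1 on the log2 scale.

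Atp6v0d2 again differed most, at 9.59 CPM on HFD (1.35 to 50.3, n = 14) and 6.72 on chow (0.137 to 17.9, n = 16), 1.66 ± 0.43 (adjusted p = 0.00366). In C3Hn:C57mt it was at 50.3, 43.6 and 45.7 CPM on HFD and at 11, 13.5, 10.1 and 14.8 on chow. In C57n:C57mt it was at 3.46, 20.7, 7.09 and 12.1 on HFD and 0.915, 1.54, 0.516 and 1.09 on chow. Neither genotype overlapped between diets, though over all genotypes the diets did. Lamp2 was at 359.8 CPM on HFD (147 to 481) and 224 on chow (165 to 299), 0.63 ± 0.10 (4.78e-05). The single HFD value of Lamp2 under 308 CPM was replicate 3 of C3Hn:C3Hmt, the library with the most lymphocyte RNA. That library is also the only one of its sequencing run.

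Lipa rose by 0.62 ± 0.10 (adjusted p = 4e-05), from a median of 89.3 to 118 CPM, Atp6v1a by 0.56 ± 0.10 (6.59e-05), Atp6v1b2 by 0.39 ± 0.09 (0.0021) and Atp6v1c1 by 0.33 ± 0.06 (0.000281). Of the cathepsins, Ctsk rose by 0.54 ± 0.22 (0.0492), Ctss by 0.42 ± 0.15 (0.0252), Ctsc by 0.39 ± 0.10 (0.00292) and Ctso by 0.38 ± 0.06 (7.13e-05). Ctsz, a carboxypeptidase, fell by 0.30 (SE 0.08, 0.00708), from 298 CPM (212 to 382) to 243 (136 to 295). Ctsk lost its call in 26 of the 30 fits that leave out 1 library and Ctss in 8, and the other 10 kept theirs in all 30.

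Macrophage markers were higher here too, in 17 of 24 (median 0.58). The 12 covariate markers summed to a median of 569 CPM on chow and 729 on HFD, so the covariate moved with diet here as well. With the macrophage covariate 4 members were called higher, Atp6v1a (0.58, adjusted p = 0.018), Lamp2 (0.63, 0.018), Ctso (0.47, 0.0029) and Atp6v1c1 (0.36, 0.026), and Ctsz was lower (-0.42). Lymphocyte and fast muscle markers also moved with diet, with medians of 786 and 192 CPM on chow and 69.3 and 1921 on HFD. With both as covariates 10 were called higher, and Ctsd (-0.40) and Ctsz (-0.32) lower. The G+C and length correction left 6 calls, among them Atp6v0d2 (1.35, adjusted p = 0.0407), Atp6v1a (0.29, 0.0394), Atp6v1b2 (0.40, 0.0123), Lamp1 (0.39, 0.0149) and Lipa (0.44, 0.00812), and turned Ctsz to 0.06.

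**Figure D4:**
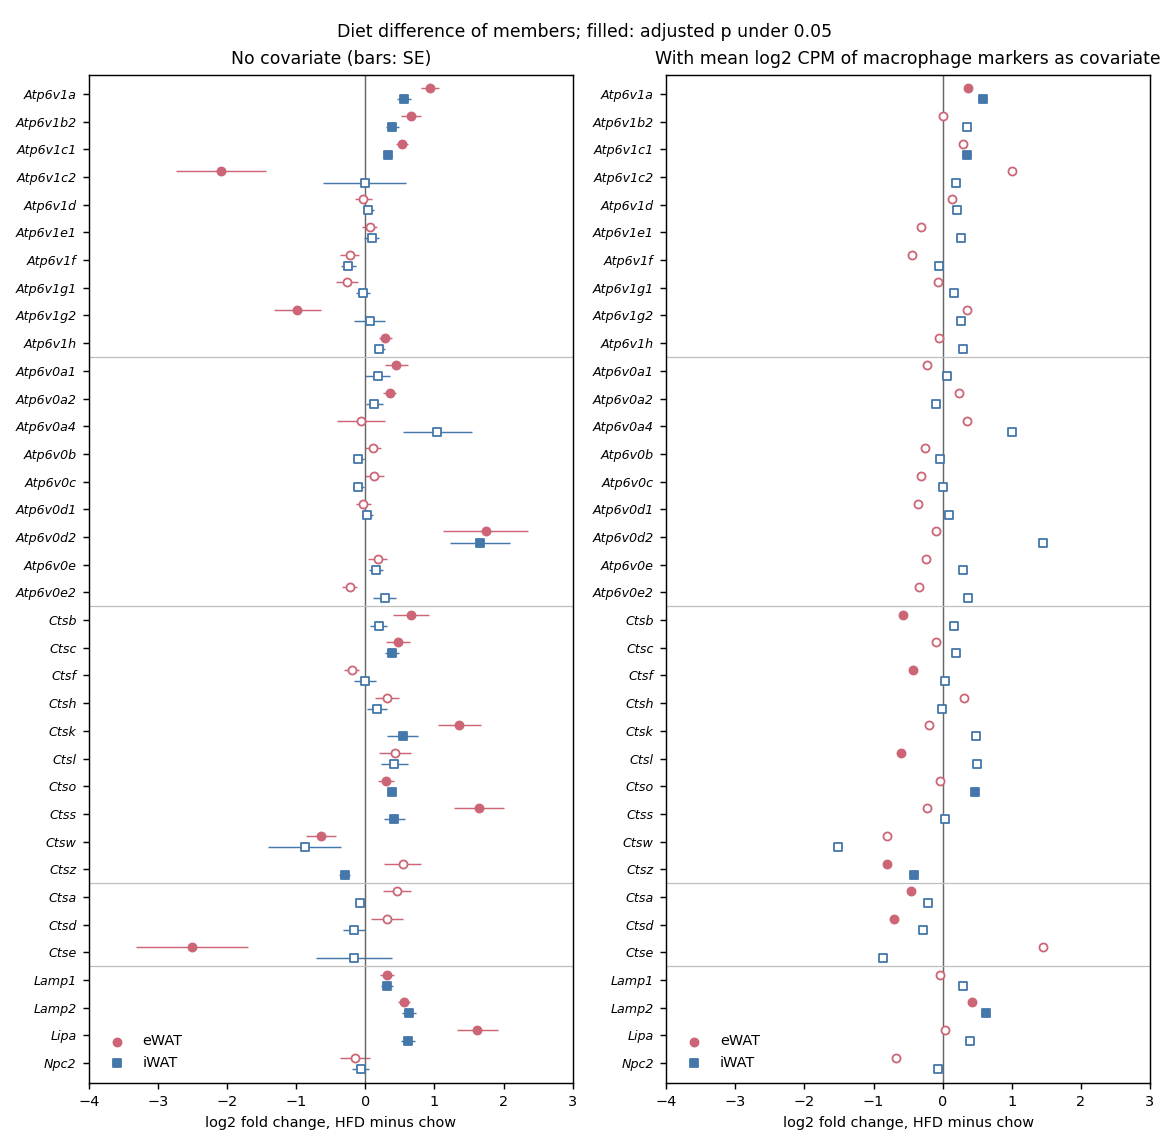
Log2 difference of 36 members between HFD and chow in eWAT (red circles) and iWAT (blue squares), without a covariate (left, bars are SE) and with the mean log2 level of 12 macrophage markers in the fit (right); filled symbols have an adjusted p under 0.05. In eWAT Atp6v1a (0.94, then 0.37) and Lamp2 (0.56, then 0.43) stay filled and right of 0 in both panels.

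Within single genotypes fewer members passed. In eWAT, C57n:C57mt had 9 members higher and 0 lower (6.75% and 10.2% of all genes), led by Atp6v0d2 (3.66, adjusted p = 0.0479), Ctss (2.25, 0.0303) and Lipa (1.76, 0.0381). The exchange line C57n:C3Hmt had 0 higher and 1 lower (3.24% and 3.97%, together 7.21%), Ctsw at -1.52. C3Hn:C3Hmt had 0 called (0.882% and 0.792%, together 1.67%), with 6 members at an unadjusted p under 0.05, all higher. C3Hn:C57mt had 4 higher and 4 lower (5.86% and 5.4%): Lipa (1.93), Atp6v1a (1.38, 0.00254), Atp6v1c1 (0.77) and Lamp2 (0.66) rose, and Ctse (-6.90), Atp6v1c2 (-4.89), Ctsf (-0.71) and Atp6v0e2 (-0.69) fell, with Ctse and Atp6v1c2 resting on the chow library already named. Scaled by library size alone, a fit chosen after seeing the data, C3Hn:C57mt had 7 higher and 4 lower (6.42% and 4.2% of all genes). The counts rest on few libraries: without replicate 3 of C57n:C57mt on chow, that genotype had 2 calls, and without replicate 3 of C3Hn:C57mt on HFD, that one had 1.

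In iWAT, C57n:C57mt had 10 members higher (9.38% of all genes), C57n:C3Hmt had 7 (9.65%), C3Hn:C57mt had 2 (4.34%) and C3Hn:C3Hmt had 0 (3.54%, or 4.88% in either direction). In each genotype 0 members were lower, against 7.28%, 6.86%, 3.37% and 1.34% of all genes. Scaled by library size alone, C57n:C3Hmt had 7 higher and 1 lower (7.96% and 6.28% of all genes). C57n:C57mt was led by Atp6v0d2 (3.40), Ctsl (1.14) and Atp6v0e2 (1.02), C57n:C3Hmt by Lamp2 (1.03) and Ctsc (0.76), and in C3Hn:C57mt Lipa (1.09) and Atp6v1a (0.75) were called. In C3Hn:C3Hmt 6 members had an unadjusted p under 0.05, 3 in each direction. The G+C and length correction left 0 calls among members in each of the 4 genotypes, and the share of all genes in those fits is not given.

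Whether these responses differ between genotypes was tested directly. For diet by nuclear genome, edgeR called 0 members in either depot, with 4 at an unadjusted p under 0.05 in eWAT and 13 in iWAT, and DESeq2 called 1 and 8. Over all genes edgeR called 0% in eWAT and 0.717% in iWAT. Shares of all genes in this and the next paragraph are those of edgeR, and none is given for DESeq2. The iWAT count of members called by edgeR rose to 10 when replicate 1 of C57n:C3Hmt on chow was left out. The differences, as the response of C57n minus that of C3Hn, were -0.92 ± 0.29 for Ctss (adjusted p = 0.0863) and 0.62 ± 0.21 for Lamp2 (0.0937) in iWAT, and -0.40 ± 0.25 for Atp6v1a (0.37) and -0.03 ± 0.59 for Lipa (1) in eWAT. For diet by mitochondrial genome, 0 members were called in the 4 tests (0% of all genes in each), with 1 to 3 members per test at an unadjusted p under 0.05, and DESeq2 called 1 over all 4. For the eWAT response minus the iWAT response, 0 of 38 were called (0.0437% of all genes) and 11 had an unadjusted p under 0.05, Lipa at 1.03 ± 0.31 (adjusted p = 0.109) and Ctss at 1.24 ± 0.39 (0.116) among them. DESeq2 called 3.

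The mitochondrial genome was also compared at fixed diet, exchange line minus wild type within each nuclear background. Over the 10 comparisons edgeR called 0 members, where it called 0 to 0.0113% of all genes. DESeq2 called 2 members, and its share of all genes is not given here. Between 0 and 5 members per comparison had an unadjusted p under 0.05. The 5 in C3Hn eWAT on HFD were Atp6v1a, Atp6v1b2 and Lipa, higher in C3Hn:C57mt, and Atp6v0e2 and Ctsf, lower. Lipa was at 582, 1035 and 1410 CPM in C3Hn:C57mt and 127, 576, 618 and 383 in C3Hn:C3Hmt, and the lines overlapped, as they did for Atp6v1a and Atp6v1b2. Atp6v0e2 was at 39.8, 35.6 and 34 CPM against 52.5, 45.4, 70.1 and 60.3, and Ctsf at 47, 40.9 and 42 against 48.9, 64.4, 86.4 and 61.1, without overlap. In muscle all 32 members lay between -0.34 and 0.36 in both comparisons.

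**Figure D5:**
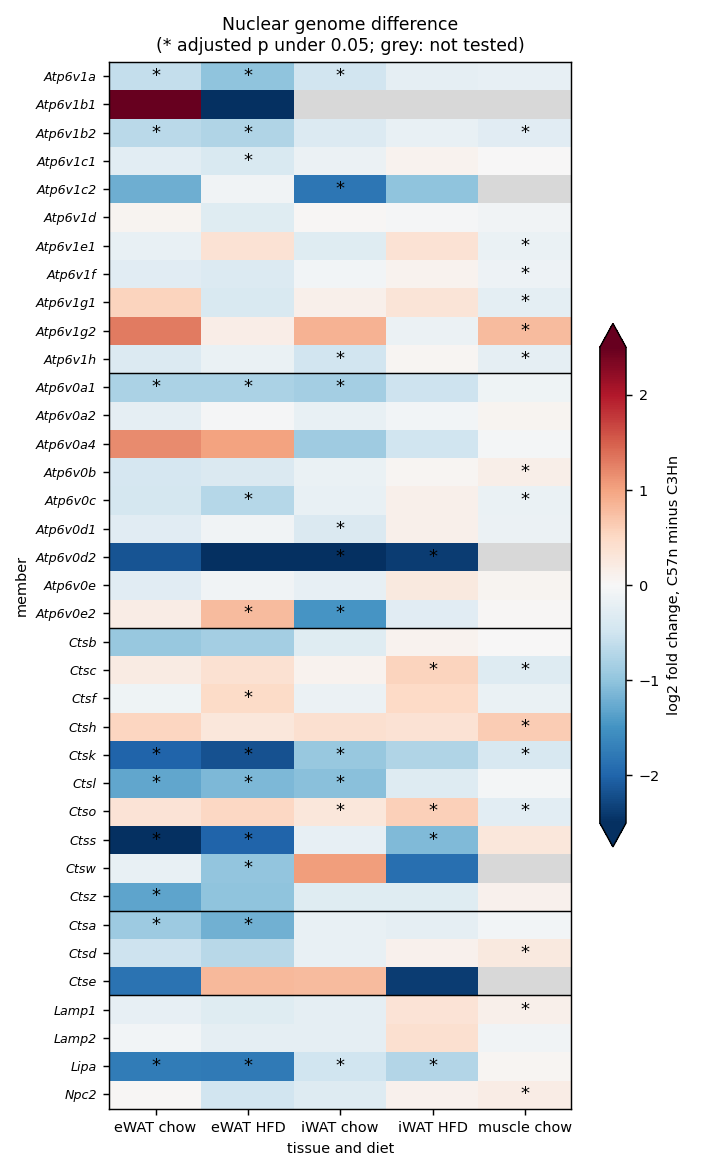
Log2 difference between C57n and C3Hn, averaged over both mitochondrial genomes, for 37 members (rows, ordered by role) in 5 combinations of tissue and diet (columns); blue is lower in C57n, colours saturate at 2.5, and stars mark an adjusted p under 0.05. Lipa and Ctsk are blue in all 4 fat columns, while Ctso is red in fat and blue in muscle.

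Between nuclear genomes, 4 cathepsins (Ctsa, Ctsk, Ctsl and Ctss), Lipa and 3 pump genes were lower in C57n than in C3Hn eWAT on both diets. On chow 0 members were higher and 9 lower in C57n (8% and 7.11% of all genes), and on HFD 2 were higher and 11 lower (5.59% and 7.59%). The median difference of the members was -0.28 on chow and -0.37 on HFD, against 0.06 and -0.05 over all genes. These 8 are 88.9% of the lower chow calls and 72.7% of the lower HFD calls, and the 3 pump genes are Atp6v0a1, Atp6v1a and Atp6v1b2. The overlap between diets over all genes was not counted. The diets are compared here side by side, and each uses its own libraries.

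Ctss on chow was at 77.5 CPM in C57n (55.2 to 106, n = 8) and 649.5 in C3Hn (55.8 to 932, n = 7), a difference of -2.57 ± 0.51 (adjusted p = 0.00158). On HFD it was at 341 (108 to 601) and 1057 (209 to 1962), -2.0 (0.0128). Ctsk was at 19.2 CPM (13.2 to 35.2) and 129 (17.3 to 164) on chow, -2.01 ± 0.43 (0.00338), and at 54 (25.3 to 90.1) and 206 (42.4 to 382) on HFD, -2.18 ± 0.46 (0.0023). Lipa was at 72.9 (27.2 to 83.2) and 267 (34.7 to 391) on chow, -1.74 ± 0.41 (0.00762), and at 204 (98.5 to 365) and 582 (127 to 1410) on HFD, -1.77 (0.00824). On HFD the groups of these 3 genes overlapped through 1 low C3Hn library, replicate 1 of C3Hn:C3Hmt. On chow they overlapped through replicate 2 of C3Hn:C57mt and, for Ctsk and Ctss, also through replicate 1 of C3Hn:C3Hmt. The first 2 of these 3 libraries hold epithelial RNA. Ctsl (-1.29, adjusted p = 0.00941) and Ctsz (-1.32, 0.0213) were the next lowest on chow, and Ctsa (-1.2, 0.00701) on HFD.

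The differences of the pump subunits were smaller. Atp6v1a was at 94.5 CPM in C57n and 149 in C3Hn on chow, -0.60 (adjusted p = 0.0242), and at 158 and 293 on HFD, -1.0 (0.000673). Atp6v0d2 had wide spread, at 3.16 CPM (0.835 to 67.8) and 72.7 (2.7 to 110.3) on chow, and was not called on either diet (-2.16, adjusted p = 0.0852; -2.52, 0.0708), but was without the libraries with epithelial RNA (-5.10, 0.00165; -2.66, 0.0047). Atp6v0e2 went the other way on HFD, at 78.9 CPM (68.7 to 97.8) in C57n and 45.4 (34 to 70.1) in C3Hn, 0.79 (0.00146), as did Ctsf (0.47, 0.0445).

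Macrophage markers differed too: 12 of 24 were lower in C57n on chow and 13 on HFD, with 1 and 2 higher. The 12 covariate markers summed to a median of 457 CPM in C57n and 1188 in C3Hn on chow, and 1071 and 2105 on HFD. The covariate can thus take up part of a nuclear difference. With the macrophage covariate the chow calls were Ctso higher (0.57) and Atp6v1c2 (-2.62) and Ctse (-2.95) lower. The HFD calls were then 5 lower, Ctsk (-1.03), Ctss (-0.67), Lipa (-0.61), Atp6v1a (-0.58) and Ctsa (-0.51), and 5 higher, Atp6v0e2 (0.87), Ctsc (0.85), Ctso (0.77), Ctsf (0.63) and Atp6v1e1 (0.62). Single libraries moved the counts: leaving out replicate 1 of C57n:C3Hmt on HFD left 5 of the 13 HFD calls. Ctsk and Lipa were called in every fit that leaves out 1 library, on both diets.

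In iWAT the nuclear difference shared part of its members with eWAT. On chow 1 was higher and 10 lower in C57n (5.7% and 6.01% of all genes), and on HFD 2 were higher and 3 lower (8.26% and 8.04%). Of the lower members 5 were shared with eWAT on chow (Atp6v0a1, Atp6v1a, Ctsk, Ctsl and Lipa, 50% of the iWAT and 55.6% of the eWAT calls) and 2 on HFD (Ctss and Lipa, 66.7% and 18.2%). The overlap between depots over all genes was not counted. Scaled by library size alone, HFD had 1 higher and 7 lower (5.18% and 13.4% of all genes). Atp6v0d2 was at 0.79 CPM in C57n (0.137 to 7.3) and 13.5 in C3Hn (6.14 to 17.9) on chow, -3.08 ± 0.63 (adjusted p = 0.0013), where 1 C57n library of 7.3 CPM reached the C3Hn range. Atp6v0e2 was at 12.8 CPM (9.04 to 35.7) and 42.5 (37.5 to 61.7) on chow without overlap, -1.47 ± 0.24 (0.000114), the opposite sign to eWAT on HFD. Ctsl (-1.05, 0.0125), Ctsk (-0.95, 0.0364), Atp6v0a1 (-0.84, 0.0246), Lipa (-0.49, 0.0211) and Atp6v1a (-0.48, 0.0146) were lower on chow, with Atp6v1c2, Atp6v1h and Atp6v0d1. On HFD Atp6v0d2 (-2.37, 0.00965), Ctss (-1.11, 0.000657) and Lipa (-0.73, 0.00114) were lower. Ctso, a widely expressed cysteine cathepsin, was higher on both diets, at 71.9 CPM (62.4 to 80.8) against 58.5 (53.4 to 68.9) on chow (0.29, 0.0332) and 102 (83.7 to 137) against 64.4 (60.3 to 90.8) on HFD (0.60, 9.24e-05). Ctsc was higher on HFD (0.56, 0.00874). The 5 HFD calls and 5 of the 11 chow calls (Atp6v0d2, Atp6v0e2, Atp6v1a, Atp6v1h and Ctsl) held in all 30 fits that leave out 1 library, and without replicate 3 of C57n:C3Hmt on chow 5 chow calls were left. Of the macrophage markers 3 were higher and 4 lower on chow, and 3 higher and 8 lower on HFD, where they summed to 1574 to 2220 CPM in C57n and 1888 to 3266 in C3Hn. With their covariate 10 members were called on chow and 5 on HFD.

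Muscle showed small differences with narrow spread. Of 32 members tested, 6 were higher and 9 lower in C57n (17.1% and 16.5% of all genes). Scaled by library size alone, 3 were higher (Atp6v1g2, Ctsd and Ctsh) and 17 lower (10.7% and 29.5% of all genes). The median of all genes moved from -0.00 to -0.10. Cathepsin H, an aminopeptidase, was at 9.94 CPM in C57n (8.92 to 12.4, n = 8) and 6.34 in C3Hn (5.82 to 8.36, n = 8) without overlap, 0.63 ± 0.09 (adjusted p = 3.14e-05). Ctsd was at 628 CPM (551 to 683) and 515 (485 to 569), 0.25 ± 0.04 (0.000257). Atp6v1g2 (0.79, 0.00526), Npc2 (0.18, 0.00883), Lamp1 (0.13, 0.00179) and Atp6v0b (0.14, 0.049968) were also higher. Atp6v1b2 was lower without overlap, at 45.1 CPM (43 to 50.9) against 54.6 (52.9 to 60.4), -0.29 (5.56e-05), with 4 other V1 genes (Atp6v1g1, Atp6v1h, Atp6v1e1 and Atp6v1f), the V0 gene Atp6v0c (-0.16, 0.00398), and Ctsk (-0.40), Ctsc (-0.32) and Ctso (-0.27, 0.0102). Ctso was thus lower in C57n muscle, at 7.83 against 9.51 CPM, and higher in C57n iWAT, and the difference between the tissues was not tested. Macrophage markers in muscle summed to 92.8 to 162 CPM in C3Hn and 108 to 161 in C57n.

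The depots were compared at fixed diet over the mean of the 4 genotypes. On chow 14 of 38 members were higher in eWAT than in iWAT and 2 lower (18.9% and 14.4% of all genes). Pump genes were 20 of the 38 tested and 10 of the 14 higher. Among the 10 were Atp6v0a4 (3.85 ± 0.45, adjusted p = 8.9e-09), a kidney-type a subunit that was under 1 CPM in all iWAT libraries, and Atp6v0e2 (1.30). Lamp2 (0.45) and Lamp1 (0.43) were higher as well, and Ctsk (-0.82) and Ctsw (-2.61) lower. On HFD 19 were higher and 1 lower (10.1% and 13%), now with Lipa (1.39 ± 0.23, 1.49e-05), Ctss (1.31 ± 0.28, 0.000583), Ctsa (0.80), Ctsd (0.78), Ctsz (0.78), Atp6v1a (0.67) and Ctsb (0.63). The lists shared 10 higher members, 71.4% of the chow calls and 52.6% of the HFD calls. The overlap of all genes between these lists was not counted, so these shares need not be particular to the members.

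Since 20 animals gave both depots, the 40 libraries of those animals were also fitted with the animal as a block. On chow the blocked fit called 8 members, keeping Atp6v0a4 (4.04, adjusted p = 0.00103), Atp6v0e2 (1.60, 1.84e-05), Lamp2 (0.54), Lamp1 (0.43), Atp6v0a1 (0.64), Atp6v1c2 (3.04) and Ctsw (-2.71) among them, while Atp6v0d2 (1.56, 0.0911), Ctsk (-0.81, 0.0747), Ctsl (0.59, 0.102) and Npc2 (0.36, 0.29) were not called. The same 40 libraries without the block gave 6, and the share of all genes in these fits is not given. On HFD the blocked fit called 21 and the same libraries without it 19, where Ctss was not called with the block (0.93, adjusted p = 0.0623). Epithelial markers were higher in eWAT in 9 of 9 on chow and 4 of 9 on HFD. Without the 7 libraries with epithelial RNA, Atp6v1c2 (0.52, adjusted p = 0.393), Atp6v0d2 (1.2, 0.0743) and Atp6v1g2 (-0.00) were not called on chow, and Atp6v0a4 was (2.93, 2.12e-06). Macrophage markers were higher in eWAT in 6 of 24 on chow and 19 of 24 on HFD, and lymphocyte markers lower in 16 of 16 on both diets.

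Muscle on chow held less of the cathepsins, Npc2 and Lipa than fat, while the direction of many pump genes depended on the scaling. The V-ATPase members made up a median of 0.0793% of counts in muscle, 0.187% in eWAT and 0.16% in iWAT. With TMM scaling, against eWAT 7 members were higher and 26 lower (32.8% and 49.7% of all genes), and against iWAT 9 and 23 (34.1% and 46.3%). The median difference was -1.10 and -0.89, against -0.51 and -0.32 over all genes. Scaled by library size alone, 1 was higher and 34 lower against eWAT (12% and 77.4% of all genes), and 3 and 32 against iWAT (13% and 74.3%). The median of all genes moved to -1.78 and -1.50. All 13 cathepsins tested were lower in muscle in both comparisons under both scalings, with a median of -1.94 and -1.80 under TMM. Npc2 was at 38.6 CPM in muscle (34 to 48.3) and 1495 in eWAT (337 to 2428), -3.89 ± 0.18 (adjusted p = 6.3e-22), Ctss at 7.12 and 103 CPM (-3.42), and Lipa at 5.56 and 82.6 CPM (-3.03). Atp6v0d2 was at no more than 0.185 CPM in muscle (-7.29).

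Under TMM 6 of 21 pump genes were higher and 10 lower in muscle than in eWAT, and 8 higher and 7 lower than in iWAT. By library size 1 was higher and 17 lower, and 3 higher and 15 lower. The stalk subunits Atp6v1g1 (1.92 ± 0.12 against eWAT and 2.31 ± 0.12 against iWAT) and Atp6v1d (1.19 and 1.28) stood highest under TMM. Scaled by library size, Atp6v1g1 was still higher (0.62 and 1.09), Atp6v1d was not called (-0.11 and 0.06), and Atp6v1e1 (-1.08 and -0.88), Atp6v1f (-0.78 and -0.57), Atp6v0b (-0.96 and -0.79) and Lamp1 (-1.01 and -0.53), all called higher under TMM, were lower against both. Atp6v0e2, higher against both under TMM, was lower against eWAT (-0.89) and higher against iWAT (0.44). The catalytic Atp6v1a (-1.71 and -1.46) and Atp6v1h (-1.63 and -1.62), of the same V1 domain, were lower under both scalings. Atp6v1g1 was at 158 to 223 CPM in muscle and 73.2 to 265 in eWAT. The macrophage markers were lower in muscle in 24 of 24 against eWAT and 23 of 24 against iWAT, and their part in these differences was not tested.

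Other genes of the lysosome were read from lists chosen with earlier results of these data known. Among 38 other hydrolases, 16 were higher and 2 lower in eWAT on HFD (median 0.26; 18.5% and 22.9% of all genes), led by the asparaginyl protease Lgmn (0.86, adjusted p = 0.00428), the sulfatase Ids (0.75), the ceramidase Asah1 (0.69) and Galc (0.69). In iWAT 10 were higher and 7 lower (21.4% and 16.2%), with Ids (0.70, 4.71e-10) and Asah1 (0.60) again leading. Among membrane and transport genes, 12 of 27 were higher in eWAT, led by the phagocyte genes Cd68 (1.36), Slc11a1 (1.29) and Laptm5 (1.14), and 2 lower, Abca2 (-0.99) among them. In iWAT 11 of 28 were higher and 4 lower. Tcirg1, which encodes the a3 subunit of the pump but lies outside the Atp6v symbols, rose in eWAT (0.69 ± 0.26, 0.0381) and fell in iWAT (by 0.48, SE 0.11, 0.000925), and with the macrophage covariate its eWAT difference was -0.62 (0.00505). It was lower in C57n than in C3Hn in eWAT on chow (-1.29, 0.0209) and HFD (-2.40, 0.00022) and in iWAT on HFD (-1.43, 2.79e-07).

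The transcription factors that drive lysosomal genes did not move as 1 group. Mitf rose in both depots on HFD, by 1.76 ± 0.23 in eWAT (adjusted p = 7.01e-06) and 1.14 ± 0.32 in iWAT (0.00646), and its eWAT difference beside the macrophage covariate was 1.06 (0.014). Tfeb, listed under its older symbol Tcfeb, was at -0.21 in eWAT (0.223) and fell by 0.69 in iWAT (SE 0.12, 0.000116). Tcfec rose by 0.85 and Fnip1, part of a regulator of mTORC1 on lysosomes, by 0.73 in eWAT, and of 12 regulators 4 were higher and 1 lower there. Under TMM scaling muscle had more Tcfeb than eWAT (3.26 ± 0.11, 2.09e-25) and iWAT (2.81 ± 0.11, 3.22e-24). Of 4 protease inhibitor genes tested in eWAT, Cstb rose (0.61, 0.0341) and Spint2, expressed in epithelia, fell by 2.64 (SE 0.67, 0.00379). Most libraries with epithelial RNA are on chow, and Spint2 was not read without them. Among the other lysosomal genes read here, the nuclear genomes differed most in muscle in Npc1, which exports the cholesterol that Npc2 delivers (2.5 ± 0.07, 1.3e-13), and in the thioesterase Ppt1 (-1.19 ± 0.06, 5.76e-11). Whether reads of both strains align equally well to build mm9 was not tested for any nuclear difference.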

How the data were processed

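The authors deposited expected counts per gene and per transcript, estimated with RSEM on build mm9 per the submitters' processing notes, which also name DESeq2 1.10.1; the sources used here give no RSEM version, annotation or mapper. The percent G+C of aligned reads was taken from the authors' deposited summary tables. The authors' normalized tables were not used here. Expected counts were rounded and fitted with edgeR 4.0.16 (TMM, filterByExpr with a minimum count of 10, quasi-likelihood test, two-sided) in R 4.3.3, 1 fit per tissue and joint fits over both depots and over all chow libraries. P-values were Benjamini-Hochberg adjusted over all genes tested, and an adjusted p under 0.05 was called. Overlaps between lists of called members were not set beside those of all genes. In simulated data for the diet comparisons, 25 of 100 true 1.5-fold changes were called in eWAT and 48 of 100 in iWAT. Of 100 true 3-fold changes, 79 and 84 were called. False calls made up 3.7% and 7.69% of the calls. In these simulations 100 genes were changed by each fold and all others by none, while 41.3% and 37.6% of genes were called in the data. The shares recovered therefore need not hold for the real tests, and a member that was not called may still differ. Replicates carry different animal numbers in the titles.

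CPM values use the TMM factors of the fit of their own tissue, while differences between tissues use those of the joint fits. Ratios of CPM values and fitted differences can therefore differ. The members and lists were chosen with earlier results of these data known. Named per comparison were up to 12 called members by size of difference and 16 fixed members, and from other lists up to 4 called genes each with Tcirg1, Tfeb and Mitf. Animal numbers in the titles pair the depots of 20 animals: deviations from the group means correlated at a median of 0.121 (-0.0794 to 0.402) between depots of 1 animal and -0.0254 between depots of other animals of the same group. Alternatives were DESeq2 1.42.0, relative log expression or library size scaling, no filter, a covariate for the HFD runs, and a G+C and length correction. Others were marker covariates, the animal block, mean transcript length, and leaving out libraries. Positions are from the NCBIM37 annotation (mm9), promoters from RefSeq on GRCm38.p6.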

Additional observations from a re-analysis of the deposited data

Results flagged for a closer look

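Dixon's test was run on 5 genes in each of 11 fat groups of 4 libraries, 55 tests in all, of which chance flags about 1 in 20. In 6 of them a library stood apart. Of these, 3 fall on 1 library, replicate 4 of C57n:C57mt eWAT on HFD, which stood above the other 3 of its group. Atp6v0d2 was at 110.0 CPM there and at 27.3 to 40.5 CPM in the others. Ctsk was at 90.1 CPM against 52 to 58.5, and Lipa at 365 CPM against 184 to 205. In iWAT on chow, Atp6v0d2 was at 7.3 CPM in replicate 1 of C57n:C3Hmt and at 0.137 to 0.664 CPM in the other 3, and Lipa was at 71.3 CPM in replicate 2 of C57n:C57mt against 64.8 to 65.4. In eWAT on chow, Atp6v1a was at 69.8 CPM in replicate 3 of C57n:C57mt, the library with the most epithelial RNA, and at 92.6 to 93.4 CPM in the other 3.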

How the results depend on the processing

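Counts of called members stayed within 1.5 times the reported count in 23 of 24 comparisons with relative log expression scaling, 22 of 24 without the filter and 15 of 24 with DESeq2. The cause of each change below was not tested, and the counts of this section are given without the shares of all genes. DESeq2 called 4 members for C57n:C3Hmt and 2 for C3Hn:C3Hmt in eWAT, 1 for C3Hn:C3Hmt and 10 for the nuclear genomes on HFD in iWAT, 1 and 8 for diet by nuclear genome in eWAT and iWAT, 3 for depot by diet, 2 for the exchange and 1 for diet by mitochondrial genome. Without the filter the counts were 0 (eWAT C57n:C3Hmt) and 6 (iWAT C57n:C57mt), and relative log expression gave 1 in iWAT C3Hn:C3Hmt. Library size in place of TMM scaling, chosen after seeing the data, stayed within 1.5 times in 19 of 24 and gave 0 and 2 in eWAT C57n:C3Hmt and C3Hn:C3Hmt, 1 and 4 in iWAT C3Hn:C3Hmt and C3Hn:C57mt, and 8 for the nuclear genomes in iWAT on HFD. It turned the sign, against eWAT and iWAT in muscle, of Atp6v0b (-0.96 and -0.79), Atp6v1e1 (-1.08 and -0.88), Atp6v1f (-0.78 and -0.57) and Lamp1 (-1.01 and -0.53), of Atp6v0e2 (-0.89) and Atp6v1d (-0.11) against eWAT, and of Atp6v0c (-0.94) against iWAT. The run covariate separated only the HFD runs from each other, because all chow libraries share 1 run, so it cannot adjust diet for run. It gave 0 in eWAT C57n:C3Hmt and 1 and 5 in iWAT C3Hn:C3Hmt and C3Hn:C57mt. The G+C and length correction gave 2, 0 and 1 in eWAT C57n:C57mt, C57n:C3Hmt and C3Hn:C57mt, 6 in iWAT overall and 0 in iWAT C57n:C57mt, C57n:C3Hmt and C3Hn:C57mt, with Ctsz at 0.06.

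With the macrophage covariate the counts were 8 in eWAT and 0, 0, 2 and 4 in its C57n:C57mt, C57n:C3Hmt, C3Hn:C3Hmt and C3Hn:C57mt, 3 for the nuclear genomes in eWAT on chow, 5 in iWAT and 5 and 0 in its C57n:C57mt and C3Hn:C57mt. Differences that turned sign in eWAT were Atp6v0d2 -0.10, Atp6v1b2 -0.00, Atp6v0a1 -0.22, Atp6v1h -0.05, Ctsb -0.58, Ctsc -0.10, Ctsd -0.71, Ctsk -0.19, Ctsl -0.60, Ctso -0.04, Ctss -0.22, Ctsz -0.80, Lamp1 -0.04, Atp6v1c2 1.0, Atp6v1g2 0.35 and Ctse 1.46. Within genotypes they were Ctss -0.02 and Lipa -0.23 (C57n:C57mt), Ctsb -0.88 and Ctsz -1.07 (C3Hn:C3Hmt), and Ctsz -0.84 and Ctse 0.43 (C3Hn:C57mt). Lymphocyte and muscle covariates gave 4, 3 and 4 in iWAT C57n:C57mt, C3Hn:C3Hmt and C3Hn:C57mt, 11 for the nuclear genomes on HFD and 7 for diet by nuclear genome.

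Without the libraries with epithelial RNA the counts were 2 and 6 in eWAT C57n:C57mt and C3Hn:C3Hmt and 20 for the nuclear genomes on HFD, and Atp6v1g2 between depots on chow was -0.00. Both together, chosen after seeing the data, gave 3 in eWAT, 0 and 3 in C57n:C57mt and C3Hn:C57mt, and 5 and 5 for the nuclear genomes on chow and HFD, with Atp6v0a1 -0.12, Ctsb -0.27, Ctsc -0.21, Ctsk -0.12, Ctss -0.32, Lamp1 -0.04 and Atp6v1c2 0.45, and Ctss -0.19 in C57n:C57mt. The replicate block by animal gave 8 between depots on chow, and the same libraries without it, also chosen after seeing the data, gave 6. Mean in place of longest transcript length moved 59 of 201 median levels by 1 SD or more.

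Leaving out 1 library gave 14 to 20 calls in eWAT and 10 to 17 in iWAT for diet, 5 to 15 and 5 to 16 for the nuclear genomes in eWAT on chow and HFD, 5 to 14 and 5 to 11 in iWAT and 13 to 16 in muscle. In eWAT C57n:C57mt, C57n:C3Hmt, C3Hn:C3Hmt and C3Hn:C57mt it gave 2 to 10, 0 to 4, 0 to 1 and 1 to 9, and in iWAT 5 to 14, 2 to 10, 0 to 2 and 1 to 5. Diet by nuclear genome in iWAT ranged from 0 to 10. The 17 for diet and the 11 for the nuclear genomes on HFD in iWAT were reached without replicate 3 of C3Hn:C3Hmt on HFD. Leaving out 1 replicate number gave 10 to 15 and 9 to 19 between depots on chow and HFD, the 9 without replicate 3, and 31 to 33 for muscle against each depot.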
